A study of Mus musculus with 32 samples.

Results

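Very short transcript models, under 300 nt in length, were examined in RNA from primary mouse cortical neurons. The deposited tables list 51884 transcript models, of which 1470 are shorter than 300 nt. Of these, 370 had 0 reads in every library, 965 had some reads but a mean under 10, and 134 had a mean of at least 10 estimated reads over all 32 libraries and are described here. The remaining model, uc033jng.1, passed both limits and was left out by the rule, because it alone took 0.23% to 6.40% of the reads of a library. The members were therefore chosen by their length and their mean read count, and both are given as description only. The mean runs over every library, so it uses no contrast between groups.

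Neurons from the cortices of embryonic CD-1 mice carried 1 of 2 doxycycline-inducible lentiviral constructs of TurboID, an enzyme that attaches biotin to proteins close to it. In TurboID-PSD95 the enzyme was fused to PSD95, which organises receptors in the postsynaptic density of excitatory synapses, and Pan-TurboID labelled proteins across the whole cell. Resting neurons received cycloheximide for 2 minutes and biotin for 30 minutes. Depolarized neurons had 2 hours of tetrodotoxin with DL-AP5 and then 1 hour of KCl at 55 mM. Their recovery of 30 minutes was in fresh medium that held the biotin, tetrodotoxin and DL-AP5. Neurons were UV-crosslinked at 400 and 200 mJ/cm2, 15% of each lysate was kept as input, and RNA bound to biotinylated proteins was recovered from the rest on streptavidin beads (pulldown), so that 2 states, 2 constructs and 2 fractions gave 8 groups with 4 biological replicates each. Every culture in the series carried a TurboID construct, cycloheximide and biotin, and no library without them was analysed here. The constructs are expressed from a viral vector, so the labelled proteome is that around an introduced protein. Markers of neurons or other cell types could not be checked, because the identifiers match no entry of the name tables used here.

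RNAs annotated at these lengths include small nucleolar RNAs, which guide chemical modification of other RNAs, small nuclear RNAs of the spliceosome, transfer RNAs, microRNA precursors and fragments of longer genes. In neurons such RNAs act in splicing, in ribosome production and in the control of translation, and most of them work as parts of stable RNA-protein complexes. Libraries made from fragmented total RNA recover them unevenly, since a molecule shorter than the usual insert gives few fragments. To which of these classes a given member belongs was not established here, and sequences are not shown for the same reason. The results are given per transcript model, by its UCSC identifier.

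The members were 46 to 298 nt long, with a median of 100 nt. Their lengths fell into 14 models under 70 nt, 52 of 70 to 99 nt, 39 of 100 to 149 nt, 6 of 150 to 199 nt and 23 of 200 to 299 nt. The 23 longest took 72.1% of all reads on the members. A count of reads alone puts a very short model at a disadvantage, so the level per length is also given. In TPM, which divides reads by the effective length that salmon assigns and scales every library to the same sum, the median member stood at 57.8, against 1.28 for all models with a mean of at least 10 reads, and 132 of the 134 members lay above the latter. TPM rests on reads and length, the values that the rule used, so a gap in this direction follows from the choice of members. It is given as description only. The effective length itself is small in these models. It ran from 10.1 to 20.9 nt between libraries for the 61-nt uc012cwd.1 and from 87.9 to 142 nt for the 275-nt uc008spx.1, so a TPM value of a member depends on a correction of several times its size.

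Reads were also unequally spread among the members. The mean count was at least 100 for 19 members, 20 to 100 for 59 and under 20 for 56. In 41 members no library was at 0, and the other 93 were at 0 in at least 1 library, up to 18 libraries for uc009jpq.1. For 10 members more than 25% of all reads came from 1 library, and 13 members would have missed the limit of 10 without their highest library. Just inside the limit lay uc009jpq.1 with a mean of 10.2 reads and uc009roe.1 with 10.0, and just outside it uc056ysh.1 with 9.91 and uc011yoh.1 with 9.84. At the length limit, uc008igw.1 (294 nt) and uc008urv.2 (298 nt) lay inside and uc008jbi.1 (301 nt) and uc012ejb.1 (303 nt) outside.

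Several members could not be told apart by their reads. A set of 10 models of 90 nt, from uc029wga.1 to uc012flo.1, carried the same reads in every library to within 0.5%, with a mean of 112 per model and 1121 for the set. A further set of 10 models of 121 nt, from uc057ang.1 to uc057ano.1, carried a mean of 49.9 each and 499 together. The 134 members therefore held 116 distinct profiles, 114 of them from a model of its own. In 80 members every count was a whole number to within 0.001, so no fraction of a read was shared with another model, and in the other 54 it was. The library kit marks strand, but whether the counting used strand was not given in the sources used here, so reads from an overlapping transcript on the other strand cannot be told apart.

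The libraries held 2.95 to 19.3 M reads, of which 0.613 to 17.6 M lay outside the 3 most abundant transcripts of the series. The most abundant of these, uc009sgd.1, took 2.08% to 84.8% of a library and over 50% in 6 libraries, 5 of them of replicate 3. The mean fragment length, estimated from the effective lengths, was 162 nt ± 14.8 (SD, n = 16) in the inputs and 156 nt ± 7.40 in the pulldowns, with extremes of 134 nt in the resting PSD95 input of replicate 3 and 199 nt in the depolarized Pan input of replicate 4. Of the 134 members, 112 ± 19.0 (SD, n = 16) had at least 1 read in an input and 127 ± 6.41 in a pulldown, with the lowest number, 70, in that same depolarized Pan input. Normalised CPM values below are reads scaled to a common library size (CPM) with TMM factors, which correct for the reads that a few transcripts take.

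The first question was how much of each fraction these short models make up. Together they took 0.119% ± 0.0778 (SD, n = 16) of the reads in the inputs and 0.248% ± 0.122 in the pulldowns. In the inputs the lowest, median and highest shares were 0.0133%, 0.112% and 0.251%, and in the pulldowns 0.0519%, 0.272% and 0.416%. The 2 ranges overlapped across the series, but within a lysate the pulldown lay above its input in 15 of 16 cases, with a median ratio of 2.01 and a range of 0.947 to 16.5. The exception was the resting Pan lysate of replicate 1, and the highest ratio belonged to the depolarized Pan lysate of replicate 4, whose input was the library with 84.8% of reads on uc009sgd.1. Counted against the reads outside the 3 most abundant transcripts, the shares were 0.172% ± 0.0676 and 0.335% ± 0.137, and 15 of 16 lysates again had more in the pulldown, with ratios of 0.907 to 8.76. The highest ratio belonged to the resting PSD95 lysate of replicate 3. Its pulldown held 4495 reads on the members, with 314 on uc057ang.1 and as many on each other model of the 121-nt set of 10. As shares of summed TPM, they came to 1.62% ± 0.998 in the inputs and 6.90% ± 4.63 in the pulldowns. No test was run on these sums, because the list was put together with results of these data known.

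**Figure D1:**
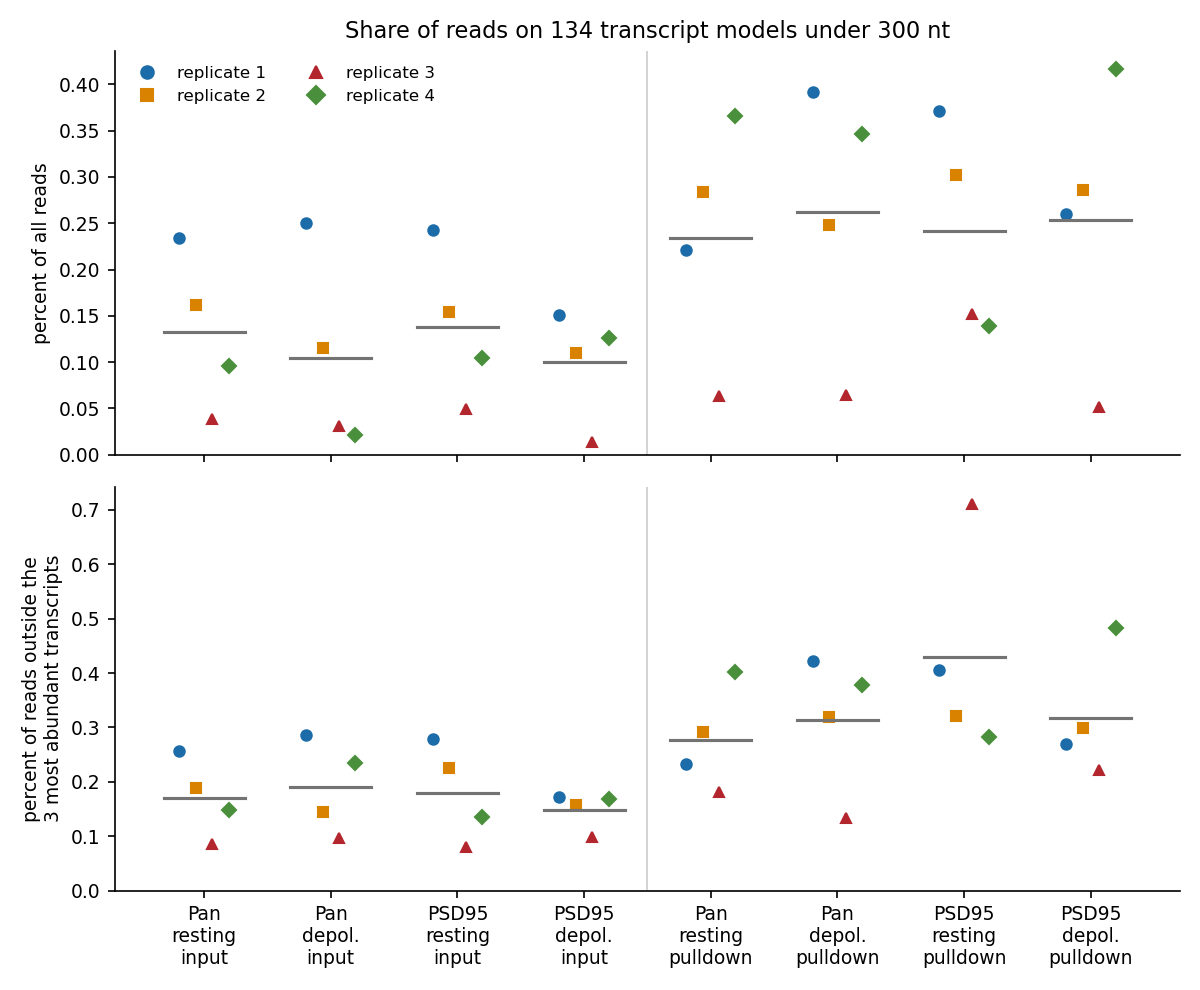
Percent of reads on the 134 models under 300 nt in each of the 32 libraries, by group, as a share of all reads (upper panel) and of the reads outside the 3 most abundant transcripts (lower panel); points are libraries, with colour and shape for the replicate, and grey lines are means of 4 libraries. Pulldowns, on the right, averaged 0.248% of all reads against 0.119% in the inputs, and replicate 3 was lowest in 6 of the 8 groups of the upper panel.

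The share depended on what was counted as short. With uc033jng.1 included, the order turned round, to 2.47% in the inputs and 2.07% in the pulldowns, because that 1 model averaged 2.35% ± 1.74 (SD, n = 16) and 1.82% ± 1.83. Without the most abundant member, uc008spx.1, the shares were 0.0401% and 0.119%, and all 16 lysates had more in the pulldown, by 1.52 to 18.6 times. For the members under 200 nt they were 0.0263% and 0.0821%. By comparison, models of at least 300 nt but under 1 kb took 3.13% ± 1.43 of the reads in the inputs and 2.84% ± 1.25 in the pulldowns.

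Construct and state made little difference to the share. With Pan it was 0.119% ± 0.0900 (SD, n = 8) in the inputs and 0.248% ± 0.128 in the pulldowns, and with PSD95 it was 0.119% ± 0.0698 and 0.247% ± 0.124. In resting neurons the inputs held 0.135% ± 0.0771 and the pulldowns 0.238% ± 0.112, and in depolarized neurons 0.102% ± 0.0800 and 0.258% ± 0.137. The depolarized share exceeded the resting one in 5 of 16 matched pairs of the same replicate, construct and fraction, and the PSD95 share exceeded the Pan share in 9 of 16. These differences are smaller than the spread between replicates.

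The replicate number went with a wider range than any of the study's factors. From replicate 1 to 4 the inputs averaged 0.220% ± 0.0463 (SD, n = 4), 0.135% ± 0.0267, 0.0330% ± 0.0150 and 0.0869% ± 0.0457. The pulldowns averaged 0.311% ± 0.0834, 0.280% ± 0.0228, 0.0830% ± 0.0466 and 0.317% ± 0.122 in the same order. Replicate 3 was thus lowest in both fractions, and it was also the replicate in which uc009sgd.1 took most reads. Over the 32 libraries the members' share correlated with that of uc009sgd.1 at a Pearson's r of -0.73 and a Spearman's rho of -0.79. Both are parts of the same library total, so the relation is partly arithmetic and is given as a description. Counted against the other reads, replicate 3 held both the lowest share, 0.0811% in the resting PSD95 input, and the highest, 0.711% in the resting PSD95 pulldown.

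A few members made up most of this share. uc008spx.1 (275 nt) alone took 57.8% of the members' reads, with a mean of 10890 reads per library, and the 6 most abundant together took 73.6%. Next came uc011yrk.2 (275 nt) with 5.52%, uc012cwd.1 (61 nt) with 3.44%, uc012cfg.1 (221 nt) with 3.29%, uc008yoa.1 (292 nt) with 1.83% and uc012esu.1 (71 nt) with 1.70%. Per length the order differed. The median TPM was 6001 for uc008spx.1, 1841 for uc012cwd.1 and 837 for uc012esu.1, the 2 shortest of the 6, against 265 for uc011yrk.2, 230 for uc012cfg.1 and 218 for uc008yoa.1.

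The level of uc008spx.1 followed the replicate number more than any treatment. Its normalised CPM ran from 699 to 1766 (median 1483) in the 8 libraries of replicate 1, from 504 to 1185 (764) in replicate 2, from 91.2 to 327 (187) in replicate 3 and from 493 to 1481 (806) in replicate 4. Every library of replicate 3 was therefore below every other library. In log2 CPM over the 32 libraries, the members most like it were uc012cwd.1 (Pearson's r 0.83, Spearman's rho 0.82), uc011xzh.1 of 66 nt (0.81 and 0.84) and uc012cfg.1 (0.80 and 0.81). Of the other 133 members, 63 had an r above 0.5 and 13 an r below 0. These correlations run across libraries that share their depth and replicate, and are given as a description. At the other end stood uc057abg.1 (117 nt), chosen after its values were seen, with an r of -0.83.

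The normalised CPM of uc057abg.1 was 25.5 to 216 in the libraries of replicate 3, against 0.912 to 5.62 in those of replicate 1, 0.252 to 10.8 in those of replicate 2 and 2.62 to 316 in those of replicate 4. Its 2 highest values were the depolarized Pan input of replicate 4 and the depolarized PSD95 input of replicate 3, which were also the 2 libraries with most reads on uc009sgd.1. Its log2 CPM correlated with the percent of reads on uc009sgd.1 at a Pearson's r of 0.87 and a Spearman's rho of 0.94 over 32 libraries. The pulldown was below the input in 7 of 8 Pan lysates and 6 of 8 PSD95 lysates, and neither comparison was called (limma adjusted p = 0.442 and 0.824).

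Pulldown was then compared with input, to ask which short RNAs were recovered with biotinylated proteins beyond their level in the lysate. Many members rose in the pulldown. For Pan, 62 of 134 members rose and 1 fell at an adjusted p of 0.05 (limma, Benjamini-Hochberg over all transcripts), where 9.98% of the 34696 transcripts tested rose and 8.24% fell. With PSD95, 75 rose and 2 fell, against 10.3% and 10.0% of all transcripts. The median log2 difference over the members was 1.34 with Pan and 1.57 with PSD95, and over all transcripts tested 0.09 and 0.13. The lower and upper quartiles of the members were 0.54 and 1.69 with Pan and 0.82 and 1.85 with PSD95. Input and pulldown share a lysate and so the same cells, but more of a model and less of the other RNA cannot be told apart. Between states or constructs, fewer cells of a type and less RNA per cell cannot be told apart either in these bulk samples.

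**Figure D2:**
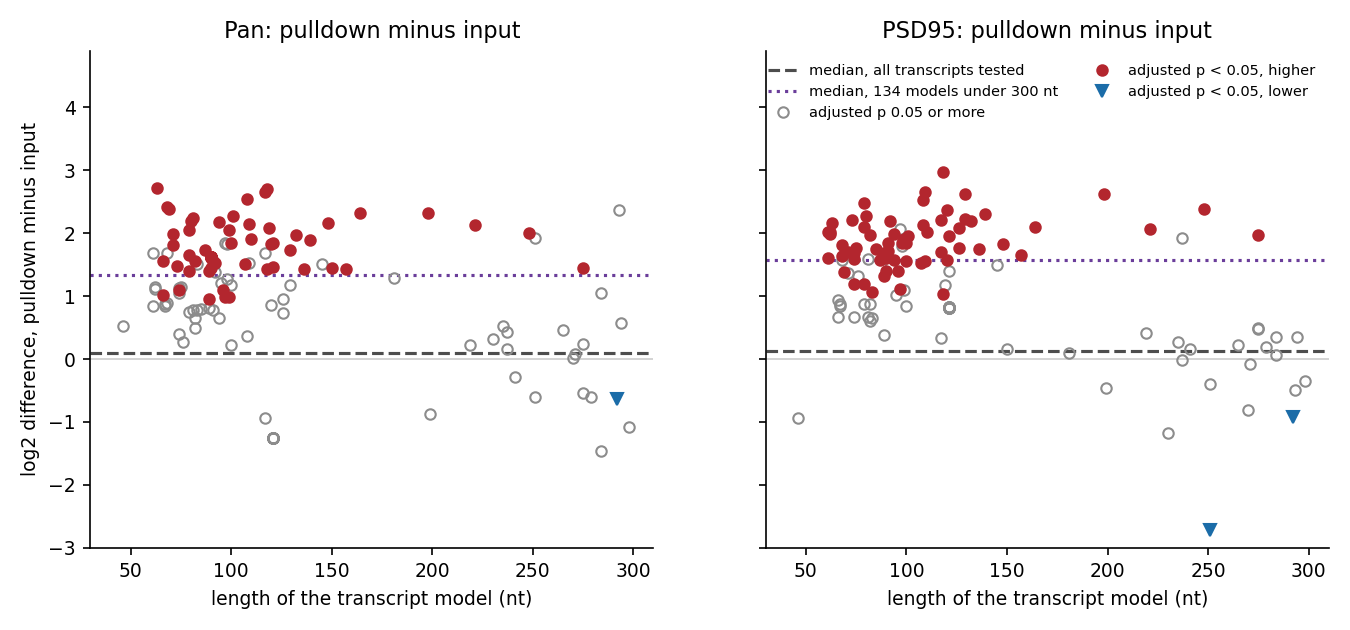
Log2 difference between pulldown and input for each of the 134 models against its length in nt, with Pan (left) and PSD95 (right); filled red points rose and blue triangles fell at a limma adjusted p under 0.05, open points did not pass, the dashed line is the median of all transcripts tested and the dotted line that of the 134 models. Models below 200 nt lie mostly around the dotted lines at 1.34 and 1.57, and most of those of 200 nt or more lie near 0.

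Since a model high only in the pulldowns could reach the mean of 10 through them, the count was repeated on models chosen by the inputs alone. Of 81 models under 300 nt with a mean of at least 10 reads over the 16 inputs, 41 rose and 1 fell with Pan, and 47 rose and 1 fell with PSD95, with median log2 differences of 1.09 and 1.40. These are 50.6% and 58.0%, against 10.6% and 10.3% of the 25440 models of any length chosen in the same way. Of the 134 members, 104 also passed the filter on low counts in the inputs, and 47 and 55 of these rose. This choice was added after the data were seen.

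The direction held in all lysates for many members. In 43 members with Pan and 44 with PSD95 the pulldown lay above the input in 8 of 8 lysates, which is 32.1% and 32.8% of them, against 5.92% and 5.18% of all transcripts tested. These counts cover all members, including 30 that did not pass the filter on low counts in the inputs, and each of the 10 copies of the 90-nt set. They were not repeated on models chosen by the inputs alone, so part of the gap may come from how the members were chosen. The members that rose with Pan and those that rose with PSD95, which come from separate libraries, shared 53 models. These made up 85.5% of the Pan list and 70.7% of the PSD95 list, and they include the 10 copies of the 90-nt set. Both lists come from 1 fit with shared replicate terms. Neither this overlap nor the joint directions that follow were counted over all transcripts, so they describe the members only. In 108 members both log2 differences were above 0, and in 4, of which 3 were among the models of 200 nt or more and the other was 199 nt long, both were below it. Among the 80 members with whole counts, 45 rose with Pan and 57 with PSD95, and among the 54 that shared reads, 17 and 18, with 10 models of the 121-nt set among those that did not.

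The difference varied with length. With Pan, the median log2 difference was 1.13 under 70 nt, 1.49 at 70 to 99 nt, 1.43 at 100 to 149 nt, 1.44 at 150 to 199 nt and 0.24 at 200 to 299 nt. With PSD95 it was 1.58, 1.68, 1.57, 0.90 and 0.18 in the same order, although the class of 150 to 199 nt held only 6 models. Of the 23 models of 200 nt or more, 3 rose and 1 fell with Pan, and 3 rose and 2 fell with PSD95. Of the 52 models of 70 to 99 nt, 32 and 37 rose and 0 fell, but these include the 10 copies of the 90-nt set, which all rose. The class of 100 to 149 nt holds the 10 copies of the 121-nt set, of which 0 rose. Copies therefore weigh on the counts and medians of both classes. Just above the limit the medians lay below 0. Those models only had to pass the filter on low counts, whereas the members also needed a mean of at least 10 reads. The 2 sets were thus not chosen alike, and the split by length was not repeated on models chosen by the inputs alone. Of 357 models of 300 to 499 nt that were tested, 14 rose and 78 fell with Pan, with a median of -0.31, and 23 rose and 95 fell with PSD95, with a median of -0.32. Among the members, most of 200 nt or more shared reads with other models, and most shorter ones outside the 2 sets of copies did not. With Pan the median log2 difference was 1.47 in the 80 members with whole counts and 0.69 in the 54 others. With PSD95 it was 1.67 and 0.82. The part of length and that of shared reads were not separated. Nor was the part of fragment length or of the recovery of short inserts in this difference by length tested.

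The smallest p-values belonged to the 90-nt set of 10. For uc029wfx.1 of this set the normalised CPM in the Pan inputs was 2.07, 4.15 and 5.97 (lowest, median and highest of 8), and in the Pan pulldowns 8.99, 12.5 and 20.2. With PSD95 it was 3.18, 4.30 and 5.42 in the inputs and 10.6, 13.1 and 18.1 in the pulldowns. The fractions did not overlap with either construct. The log2 difference was 1.63 ± 0.20 (SE) with Pan and 1.68 ± 0.18 with PSD95, at limma adjusted p-values of 1.9e-06 and 2.0e-07. The other 9 models of the set repeat these reads and add no evidence.

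Of the 6 most abundant members, 3 rose with Pan and 4 with PSD95. uc011yrk.2 stood at 20.9, 30.6 and 53.0 normalised CPM in the Pan inputs and at 46.2, 85.3 and 214 in the Pan pulldowns, and at 12.02, 29.9 and 61.5 against 72.5, 98.9 and 303 with PSD95. Its log2 differences were 1.44 ± 0.29 and 1.98 ± 0.25 (limma adjusted p = 0.000909 and 2.2e-06), and the pulldown was higher in 8 of 8 lysates with each construct. uc012cfg.1 showed 2.13 ± 0.47 and 2.07 ± 0.33, and uc012esu.1 1.99 ± 0.47 and 1.70 ± 0.28, all with limma adjusted p-values of 0.00374 or less. The 61-nt uc012cwd.1 rose with PSD95, by 1.60 ± 0.27 (limma adjusted p = 0.000119), from 13.1, 32.6 and 50.8 in the inputs to 54.4, 87.9 and 142 in the pulldowns, without overlap. With Pan its difference of 0.84 ± 0.31 missed the threshold (limma adjusted p = 0.0643).

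The most abundant member did not share this pattern. uc008spx.1 stood at 97.3, 628 and 1688 normalised CPM in the Pan inputs and at 162, 895 and 1766 in the Pan pulldowns, and at 91.2, 649 and 1621 against 311, 774 and 1766 with PSD95. Its pulldown was above the input in 6 of 8 Pan lysates and 8 of 8 PSD95 lysates. The fitted log2 difference, in which libraries carry unequal weights, was -0.54 ± 0.55 with Pan, against the sign of the group means, and 0.48 ± 0.79 with PSD95. Neither was called (limma adjusted p = 0.553 and 0.734).

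uc008yoa.1, the longest of the 6 at 292 nt, was the member that fell with both constructs. Its normalised CPM in the Pan inputs was 27.9, 35.8 and 59.1 and in the Pan pulldowns 18.1, 25.0 and 34.1, so the ranges overlapped. With PSD95 it was 28.6, 39.1 and 53.3 in the inputs and 14.0, 21.3 and 27.1 in the pulldowns, with every pulldown below every input. It fell by 0.63 ± 0.16 with Pan and by 0.92 ± 0.16 with PSD95 on the log2 scale (limma adjusted p = 0.00537 and 0.000202), in 6 of 8 and 8 of 8 lysates. The Pan call was lost without replicate 1, without replicate 3 and when the 6 libraries rich in uc009sgd.1 were left out. The other member that fell with PSD95, uc009roe.1 (251 nt), had 0 reads in 7 of the 8 PSD95 pulldowns and 1.01 normalised CPM in the other, and reached 3.99 in the inputs, where 2 libraries were also at 0. The limma adjusted p was 0.0236, and with so few reads no fold change is given. The call was lost with edgeR, with DESeq2, without the block, and without replicate 2, 3 or 4.

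**Figure D3:**
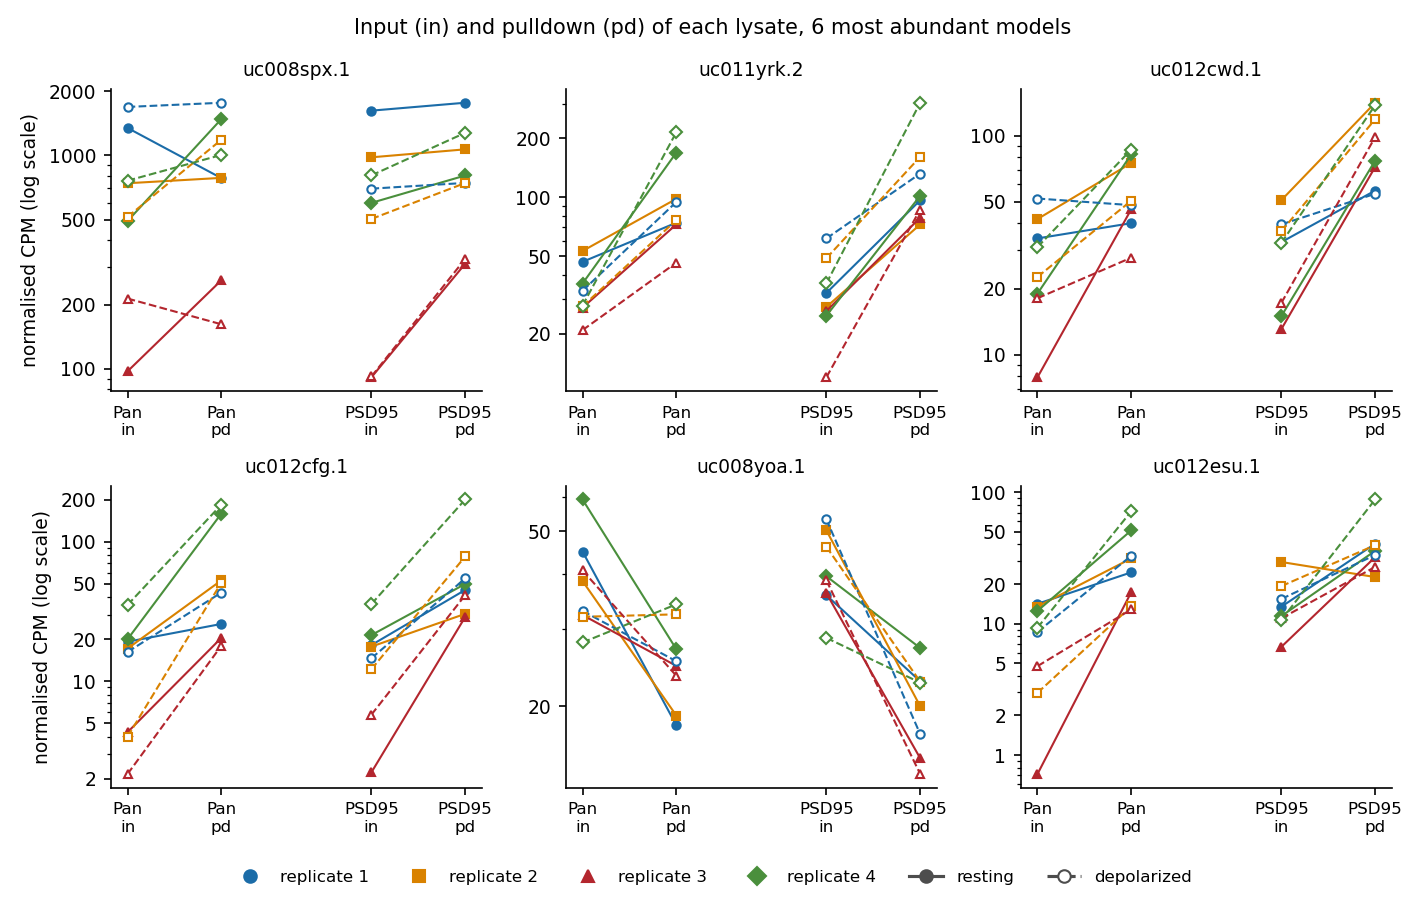
Normalised CPM, on log axes, of the 6 most abundant models in the input (in) and the pulldown (pd) of each lysate, for Pan and PSD95; lines join the fractions of 1 lysate, colour and shape give the replicate, and filled points with solid lines are resting, open points with dashed lines depolarized. uc011yrk.2 and uc012cfg.1 climbed in 8 of 8 lysates with each construct, uc008yoa.1 dropped in 8 of 8 PSD95 lysates, and uc008spx.1 was lowest in replicate 3.

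The counts depended on the test and on which libraries were included. With Pan, edgeR called 26 members higher and 1 lower, and DESeq2 called 68 higher and 13 lower, where they called 4.02% and 12.7% of all transcripts higher. With PSD95, edgeR called 27 higher and 1 lower, and DESeq2 called 75 higher and 1 lower, beside 3.44% and 12.2% of all transcripts higher. Without replicate 1, limma called 23 higher and 0 lower for Pan, and 29 higher and 2 lower for PSD95, and over all transcripts the share called higher was then 2.26% and 2.6%. Without replicates 3 or 4 it called 38 and 37 higher with Pan, and 58 and 47 with PSD95, beside 5.18% and 6.88%, and 7.14% and 6.69%, of all transcripts. With the 6 libraries rich in uc009sgd.1 (over 50% of their reads) left out, it called 37 and 57 higher, beside 5.15% and 7.33% of all transcripts. With each set of copies summed to 1 model, 53 and 66 of 116 rose, whereas the other counts here, those of DESeq2 included, take each copy separately. The median log2 difference of the members stayed between 1.18 and 1.45 with Pan and between 1.46 and 1.76 with PSD95 under all of these settings, the other scaling, the lack of a filter and the lack of a block. The median of all transcripts moved to 0.32 with PSD95 when RLE size factors replaced TMM.

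Whether the 2 constructs differed in this respect was asked by the difference of their differences, a comparison added after the data were seen. No member was called by limma or edgeR, and 0% of the 34696 transcripts were called by limma. At an unadjusted p under 0.05 there were 4 members and 2679 transcripts. The median over the members was 0.13, PSD95 above Pan, and over all transcripts -0.04. DESeq2 called 10 members, all with the higher value for PSD95, where it called 0.744% of all transcripts higher for PSD95 and 1.03% lower. Copies with the same reads count separately here, so these calls need not be 10 distinct profiles. The smallest p-values belonged to uc011ytj.1 of 99 nt, with 0.92 ± 0.43 (limma adjusted p = 0.633), and to uc009roe.1, with a limma adjusted p of 0.356.

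The response to depolarization was asked first in the inputs. Of the 104 members that passed the filter there, 0 were called by limma, where 6.19% of 27887 transcripts were, with 7 of 104 members and 5519 of 27887 transcripts at an unadjusted p under 0.05. edgeR called 0 members and 1.25% of all transcripts, and DESeq2 called 1 member, in the direction of lower, and 8.82% of all transcripts. The median log2 difference over the members was -0.28, with 35 of 104 above 0, against -0.01 over all transcripts tested. The smallest p in the lower direction belonged to uc011ysr.1 (120 nt), with 3.04, 4.63 and 6.72 normalised CPM in the resting inputs and 1.03, 2.45 and 4.58 in the depolarized ones, a log2 difference of -0.79 ± 0.31 (limma adjusted p = 0.169).

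In the other direction stood uc009jpq.1 (284 nt), which was at 0 in most resting libraries. It had 0 reads in all 8 resting Pan libraries of either fraction and in 3 of 4 resting PSD95 inputs and 3 of 4 resting PSD95 pulldowns. The exceptions were the resting PSD95 input of replicate 2, with 2.07 normalised CPM, and the resting PSD95 pulldown of replicate 3, with 1.60. In the depolarized inputs it had 3.20, 8.73, 0.216 and 2.07 with Pan in replicates 1 to 4, and 0.124, 3.65, 0 and 0.078 with PSD95. In the depolarized pulldowns it had 1.51, 4.97, 0 and 1.39 for Pan, and 0.720, 0, 0 and 1.79 for PSD95. The limma adjusted p for the inputs was 0.0712, so it was not called, and without a filter on low counts it was, under a different number of tests. The free-text descriptions of the replicate 2 libraries name the opposite state to their titles, and the titles were used here. With the states of the descriptions the fitted log2 difference was 1.35 in place of 3.07.

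In the pulldowns a handful of members responded. With Pan, 1 member rose and 1 fell, where 3.30% of 32553 transcripts rose and 2.90% fell, and with PSD95, 3 rose and 2 fell, where 3.89% rose and 4.07% fell. These shares are near or under those of all transcripts. At an unadjusted p under 0.05 there were 29 of 134 members in each comparison, beside 6707 of 32553 transcripts with Pan and 7523 with PSD95, and 20 and 21 of 116 once copies were summed. The median over the members was -0.14 with Pan and -0.09 with PSD95, against -0.07 and 0.08 over all transcripts.

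uc011ysr.1 fell with both constructs. The Pan pulldowns held 14.5, 18.1, 19.6 and 11.7 normalised CPM in resting replicates 1 to 4 and 8.79, 6.77, 11.2 and 5.59 in depolarized ones, and the PSD95 pulldowns 17.5, 18.8, 27.2 and 13.8 against 8.30, 6.06, 12.7 and 6.55. The states did not overlap with either construct, and the depolarized library was the lower one in 4 of 4 replicates each time. It fell by 0.90 ± 0.19 with Pan and by 1.18 ± 0.18 with PSD95 on the log2 scale (limma adjusted p = 0.0176 and 0.00255). Its difference between pulldown and input was also among the clearest, at 1.83 ± 0.23 with Pan and 1.57 ± 0.21 with PSD95 (limma adjusted p = 2.6e-06 and 3.8e-06).

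The other member that fell, with PSD95, was the 79-nt uc011yuh.1, from 7.50, 6.26, 5.61 and 6.41 normalised CPM to 4.27, 2.74, 1.33 and 2.26. Its log2 difference was -1.15 ± 0.32 (limma adjusted p = 0.0479), and the states did not overlap. With Pan it stood at -0.56 (limma adjusted p = 0.334), and the change with construct was -0.59 (limma adjusted p = 0.625).

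Of the members that rose with PSD95, 2 were also among the 6 most abundant. uc011yrk.2 went from 96.3, 72.5, 78.5 and 102 normalised CPM to 132, 161, 86.4 and 303, a log2 difference of 0.93 ± 0.18 (limma adjusted p = 0.00968), and uc012cfg.1 from 45.1, 30.4, 28.8 and 49.7 to 54.4, 78.3, 41.4 and 201, a difference of 1.26 ± 0.32 (limma adjusted p = 0.0333). Each was higher in 4 of 4 replicates, the ranges overlapped, and replicate 4 was far above the other depolarized libraries. With Pan the same 2 models gave 0.18 and 0.28 (limma adjusted p = 0.643 and 0.681). The change with construct, tested directly, was 0.75 and 0.98 and was not called (limma adjusted p = 0.305 and 0.427). The third, uc056zzt.1 of 107 nt, was named after its values were seen. It went from 4.57, 1.59, 6.41 and 4.14 to 8.59, 9.33, 12.01 and 10.1 without overlap, a difference of 1.13 ± 0.31 (limma adjusted p = 0.0440). With Pan it gave 0.69 (limma adjusted p = 0.252), and its change with construct was 0.45 (limma adjusted p = 0.738).

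uc008vaw.1 (108 nt) was the member that rose with Pan. Its normalised CPM was 2.88, 3.78, 1.10 and 13.1 in the resting Pan pulldowns and 15.8, 13.4, 1.99 and 30.4 in the depolarized ones, so it was higher in 4 of 4 replicates with overlapping ranges. The log2 difference was 1.61 ± 0.35 (limma adjusted p = 0.0187). With PSD95 the values were 12.2, 4.76, 1.60 and 10.2 at rest and 4.70, 3.33, 2.00 and 9.29 after depolarization, a difference of -0.74 (limma adjusted p = 0.267). The change with construct, tested directly, was -2.35 ± 0.52, with a limma adjusted p of 0.139.

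**Figure D4:**
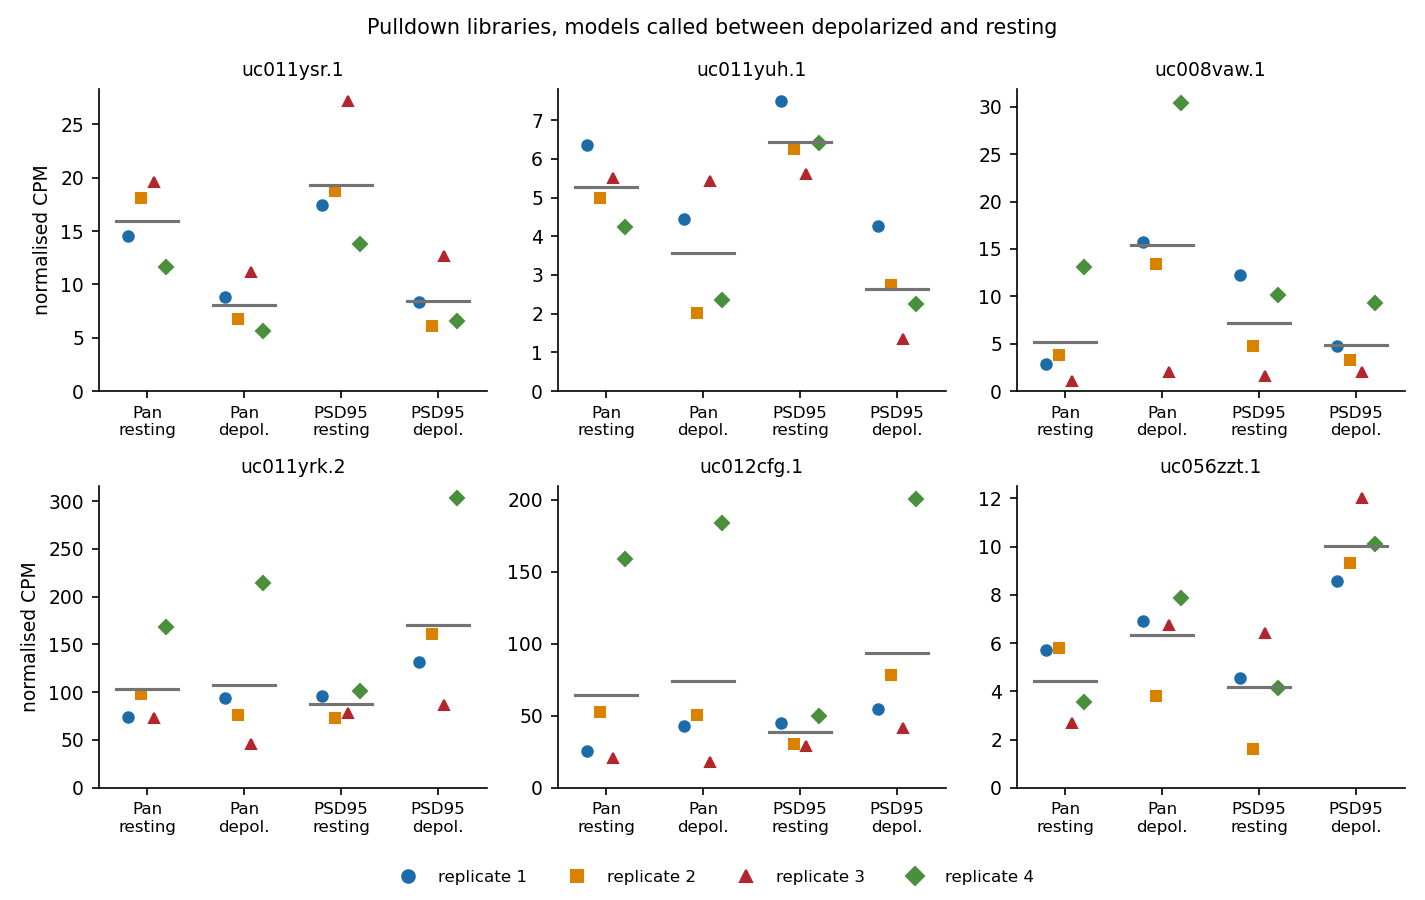
Normalised CPM in the 16 pulldown libraries of the 6 models that passed limma's adjusted p of 0.05 between depolarized and resting neurons with at least 1 construct; points are libraries, with colour and shape for the replicate, and grey lines are means of 4. uc011ysr.1 lay at 5.59 to 12.7 after depolarization and at 11.7 to 27.2 at rest, without overlap within a construct, whereas for uc011yrk.2 and uc012cfg.1 replicate 4 stood far above the other depolarized PSD95 libraries, at 303 and 201.

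None of these calls held in every setting. edgeR called 0 members in either construct, beside 0.433% of all transcripts with Pan and 0.547% with PSD95. DESeq2 called 14 in each, of which 13 with Pan and 12 with PSD95 were lower, beside 7.65% and 8.23% of all transcripts. Each copy of a set counts separately in these numbers. Without 1 replicate, limma called 0 or 1 member with Pan and 0 to 2 with PSD95, and it called 0 in both without replicate 1, without a replicate block, or with the states named in the descriptions. Over all transcripts limma called 13 and 1 of 30853 without replicate 1, 1008 and 542 of 32553 without the block, and 1 and 0 with the states of the descriptions.

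PSD95 was compared with Pan last, since this is how the study asked which RNAs lie near the postsynaptic density. No member was called by limma in any of these comparisons. The study's own definition of localized RNAs was a t-statistic above 1 within a state, with 1 transcript kept per gene. Here the limit was an adjusted p of 0.05 over all models tested, so the counts cannot be set beside the study's. In the resting pulldowns 0.00922% of 32553 transcripts were called, in the depolarized pulldowns 0.129%, and for the change between states 0.0215%. In the resting and in the depolarized inputs 0.0359% of 27887 transcripts were called. At an unadjusted p under 0.05 there were 16 members in the resting pulldowns, 13 in the depolarized ones, 14 for the change, 1 in the resting inputs and 4 in the depolarized inputs. The counts over all transcripts were 3159, 3590, 3849, 1721 and 2780 in the same order. Of the 16 members in the resting pulldowns, 10 were the 121-nt set, and 7 of 116 were left once copies were summed. edgeR called 0 members in all 5. DESeq2 called 10 in the resting pulldowns, 1 in the depolarized ones, 11 for the change and 0 in the inputs, beside 1.59%, 1.92% and 2.35% of all transcripts in the pulldown comparisons and 1.18% and 1.89% in the resting and depolarized inputs. Copies count separately among these calls. The median log2 difference over the members, PSD95 above Pan, was 0.03 in the resting and 0.25 in the depolarized pulldowns, against -0.04 and 0.08 over all transcripts.

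The 10 models that DESeq2 called in the resting pulldowns were the 121-nt set. uc057ang.1 of this set had 0.398, 2.40, 4.16 and 0.836 normalised CPM in the resting Pan pulldowns and 1.47, 5.98, 252 and 10.2 with PSD95. A single library, the resting PSD95 pulldown of replicate 3, thus stood far above the other 31, which ran up to 14.5. limma gave a log2 difference of 4.01 ± 1.20 (adjusted p = 0.344). That library also had the fewest reads of all, 2.95 M reads, with 73.9% of them on uc009sgd.1, and it was the library with the highest share of members among its other reads. With the 6 libraries rich in uc009sgd.1 left out, limma again called 0 members in the resting pulldowns.

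**Figure D5:**
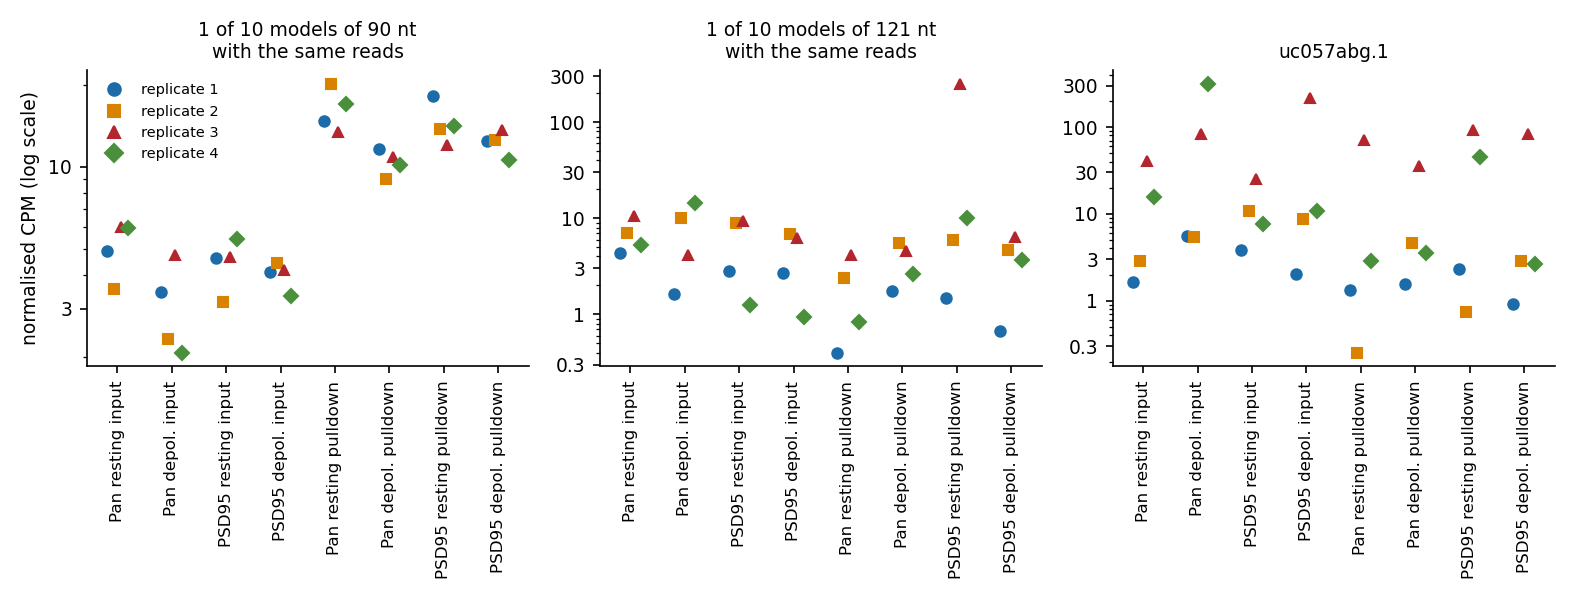
Normalised CPM on log axes in all 32 libraries, by group, of a model of the 90-nt set of 10 (left), a model of the 121-nt set of 10 (middle) and uc057abg.1 (right); colour and shape give the replicate. The 90-nt models separate inputs (up to 5.97) from pulldowns (from 8.99), the 121-nt models have 1 library at 252, and uc057abg.1 lies at 25.5 or more in replicate 3 and in 2 libraries of replicate 4.

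Other members came closest in the remaining comparisons, without being called. In the depolarized pulldowns uc012cwd.1 had 54.4, 119, 98.7 and 138 normalised CPM with PSD95 and 48.2, 50.6, 27.8 and 86.6 with Pan, a log2 difference of 0.77 ± 0.23 (limma adjusted p = 0.249), and uc008vaw.1 a difference of -1.60 ± 0.36 (limma adjusted p = 0.118). In the resting pulldowns uc009roe.1 had 0 reads in all 4 PSD95 libraries and 1.69, 0.756, 4.40 and 2.83 normalised CPM with Pan (limma adjusted p = 0.264). For the change between states, uc011zcy.2 of 126 nt gave 2.64 ± 0.87 (limma adjusted p = 0.275). In the resting inputs uc011yrk.2 gave -0.53 ± 0.17 (limma adjusted p = 0.627) and uc009roe.1 had a limma adjusted p of 0.806. In the depolarized inputs uc011yrk.2 gave 0.65 ± 0.19 (limma adjusted p = 0.312).

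uc008spx.1 was closest of all in the depolarized inputs. It had 1688, 515, 213 and 761 normalised CPM with Pan in replicates 1 to 4 and 699, 504, 92.0 and 806 with PSD95, lower in 3 of 4 replicates. The fitted log2 difference was -1.03 ± 0.16 (limma adjusted p = 0.0583). Without replicate 1 it was 0.25, so its direction rested on that replicate, and without replicate 4 it was -1.13 and past the threshold.

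Beyond their length, 32 of the members shared the start of their identifier. These identifiers begin with uc011ys, uc011yt or uc011yu, as do those of 76 models in the tables, 59 of them under 300 nt. The 32 members were 61 to 121 nt long, with a median of 82.5 nt, had mean counts of 10.7 to 95.7, and 30 of them had whole counts in every library. They took 4.79% of the members' reads. Summed, they stood at 43.8 CPM ± 20.6 (SD, n = 16) in the inputs and at 132 ± 56.6 in the pulldowns. The group was picked after its values were seen, so its counts are a description.

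Between pulldown and input, 15 of the 32 rose with Pan and 21 with PSD95, and 0 fell. Of all transcripts tested, 9.98% rose with Pan and 10.3% with PSD95. All 32 log2 differences were above 0 with each construct. The medians of the 32 were 1.09 and 1.52, and those of the other 102 members 1.43 and 1.59. After depolarization, 30 of the 32 lay below 0 in the Pan pulldowns. Their median was -0.72, against 0.10 for the other 102 members and -0.07 for all transcripts. Of the 32, 1 was called, uc011ysr.1, where 2.90% of all transcripts were called lower. In the PSD95 pulldowns 16 lay below 0. Their median was 0.01, against -0.23 for the other members and 0.08 for all transcripts. Of the 32, 2 were called lower, uc011ysr.1 and uc011yuh.1, where 4.07% of all transcripts were called lower. In the inputs 23 of the 25 tested lay below 0 and 0 were called, where 6.19% of all transcripts were. The median of the 25 was -0.35, against -0.23 for the other 79 members tested and -0.01 for all transcripts. For the change of PSD95 against Pan with depolarization, 25 of the 32 lay above 0. Their median was 0.56, against 0.14 for the other 102 members and 0.12 for all transcripts. None was called, where 0.0215% of all transcripts were. At an unadjusted p under 0.05 there were 3, beside 3849 of 32553 transcripts. How many of all transcripts lay above or below 0 was not counted.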

How the data were processed

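The authors quantified the reads of each library with salmon against mm10 UCSC knownGene transcript models and deposited 1 table per library, with expected counts (estimated reads, split among models that match equally), TPM, length and effective length. DESeq and limma are also among the tools that the submitters' processing notes list, and the version and options of salmon are not given in the sources used here. Groups come from the titles. The deposited expected counts were rounded and tested with limma 3.58.1 (voomWithQualityWeights, R 4.3.3), edgeR 4.0.16 filterByExpr and TMM factors, with group and replicate as terms, as in the study's methods, and Benjamini-Hochberg adjustment at 0.05. Comparisons across fractions used all 32 libraries, the others the 16 inputs or the 16 pulldowns. TPM values as deposited by the authors were used for levels per length only.

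Libraries of the same replicate were processed together by the study's methods, which is where the pairing comes from. The study's methods describe the model with group and replicate for pulldown samples. The lysate was not a term of the fits here. The p-values for pulldown against input thus treat the 2 libraries of a lysate as separate within a replicate. After removal of the group means, same-numbered libraries had a mean correlation of 0.075 (inputs) and 0.062 (pulldowns), and differently numbered ones -0.024 and -0.019. The p-values measure the spread between these libraries. Alternatives were DESeq2 1.42.0, the quasi-likelihood test of edgeR, no filter, RLE size factors, no replicate block, the states named in the descriptions, leaving out each replicate, and, added after the data were seen, leaving out 6 libraries and summing copies. The fits were tested on simulated counts.

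The members and lists were chosen with earlier results of these data known. Named models are the 6 most abundant, those nearest each limit, the 3 most like the most abundant, and in each comparison up to 2 called in each direction, or else the one with the smallest p. Fragment length is the median of length minus effective length plus 1 over models of at least 3000 nt. No 2 tables were identical. Precision is limited by depth, and ± values cover the spread between libraries. Lists of small RNA classes and cell type markers were not run, since the identifiers match 0 names.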

Additional observations from a re-analysis of the deposited data

Results flagged for a closer look

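In 152 groups of 4 libraries (18 named models and the members' share of reads in each of 8 groups), 7 held a library whose gap to the next, as a share of the group's range, was over Dixon's 95% critical value, which is 4.61%. Chance flags about 1 in 20 groups. The 121-nt model uc057ang.1 had 252 normalised CPM in the resting PSD95 pulldown of replicate 3, where the other 3 libraries had 1.47 to 10.2. The 71-nt model uc012esu.1 had 0.717 in the resting Pan input of replicate 3, where the others had 12.5 to 14.1. uc009jpq.1 had 3.65 in the depolarized PSD95 input of replicate 2, where the others had 0 to 0.124, and 2.07 in the resting PSD95 input of replicate 2 and 1.60 in the resting PSD95 pulldown of replicate 3, where the others had 0. uc009roe.1 had 1.01 in the depolarized PSD95 pulldown of replicate 1 and 1.31 in the resting Pan input of replicate 4, where the others had 0.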

How the results depend on the processing

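For pulldown against input, the main test called 63 members with Pan and 77 with PSD95. edgeR called 27 and 28, leaving out 1 replicate gave 23 to 46 and 31 to 63, and leaving out the 6 libraries with over 50% of reads on uc009sgd.1 gave 37 with Pan. Without the replicate block it called 43 and 65. For depolarized against resting pulldowns, with 2 called members in Pan and 5 in PSD95, edgeR, the fit without the replicate block and the states of the descriptions each gave 0 in both, DESeq2 gave 14 in both, leaving out 1 replicate gave 0 to 1 and 0 to 2, and leaving out the 6 libraries gave 1 and 2. The replicate block moved no other count of calls past 1.5 times. In the inputs, where 0 members were called between states, DESeq2 gave 1, no filter gave 2 and leaving out 1 replicate gave 0 to 1. For PSD95 against Pan, where 0 were called, the depolarized inputs gave 1 with RLE size factors, 1 with no filter and 0 to 1 without 1 replicate. DESeq2 gave 10 in the resting pulldowns, 1 in the depolarized pulldowns, 11 for the change with state and 10 for the difference of pulldown against input. Copies with the same reads count separately in all of these counts of members. The value of uc008spx.1 in the depolarized inputs reversed to 0.25 without replicate 1, and leaving out each replicate in turn moved it between -1.13 and 0.25. The members' share of reads in inputs and pulldowns was 0.0263% and 0.0821% for lengths under 200 nt, 2.47% and 2.07% with uc033jng.1, 0.0401% and 0.119% without uc008spx.1, and 1.62% and 6.90% as a share of TPM. It stayed within 1 SD at a mean count of at least 5 or 20, with the other denominator, and without 1 replicate, where it ran from 0.0850% to 0.147% and from 0.225% to 0.303%. uc009jpq.1 did not pass the filter in the inputs without replicate 2. The cause of these changes was not tested. Depth limits the members with mean counts under 20.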
